A study of Homo sapiens with 3 samples.

Results

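The 36 genes described here make cholesterol and fatty acids, sense sterols, or move sterols within and out of the cell. They were chosen by name, as the rows whose Entrez gene identifiers carry their symbols, among 19266 genes in each deposited table. Earlier results of these data were known at that time, so the choice may have shaped the counts below. Of them, 6 act from acetoacetyl-CoA to isopentenyl diphosphate, 4 from farnesyl diphosphate to lanosterol, 9 from lanosterol to cholesterol, 5 in the control of SREBP, 5 in sterol transport, and 7 in fatty acid synthesis and desaturation.

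The cells were KYSE510, an established human line of esophageal squamous cell carcinoma. They received lentivirus with hairpin 1 (sh1) or hairpin 2 (sh2) against the transcript TCONS_02256997, or with a scrambled hairpin (control), for 24 h, and then 4 µM puromycin for 48 h. All groups carry a hairpin vector and were selected, and an unselected or uninfected group was not analysed here. Each group is 1 sample with 3 numbered tables, treated as 3 libraries (n = 3). Whether these come from separate cultures is not stated in the labels. Every SD, SE and adjusted p below therefore measures only how far tables of 1 sample differ, which may be technical, and no call was tested between samples. The targeted transcript itself was not analysed here.

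Total expected counts were 14660821 to 14770512 with sh1, 15759270 to 16092417 with sh2 and 15012961 to 15414591 in control. All 36 members passed the filter on low counts, with 24 counts in a library at the fewest, and their coefficient of variation between the tables of a sample had a median of 2.42% (0.655% to 12.9%). The 9 epithelial markers looked at were TP63, KRT5, KRT6A, KRT14, KRT17, SOX2, DSG3, PERP and EPCAM. All were detected, from 7.79 CPM (KRT14 with sh1) to 2702 CPM (KRT17 in control). CPM is the count per 1e+06 counts, scaled to a common library size. By the calls described below, 2 were higher and 6 lower with sh1, and 4 were higher and 4 lower with sh2. Of all tested genes, 34.7% were higher and 34.6% lower with sh1, and 34.2% higher and 34.3% lower with sh2. TP63, a factor of the squamous lineage, was lower with both hairpins. It had 208 to 221 CPM with sh1 and 226 to 240 CPM with sh2, against 506 to 525 CPM in control. SOX2, another of these markers, went the other way. It had 48.9 to 50.5 CPM with sh1 and 32.4 to 36.8 CPM with sh2, against 20.5 to 21.4 CPM in control. Of 10 markers of other cells, ALB and APOA2 were at 0 and CD3E, PDGFRB and COL3A1 at or below 0.339 CPM in every library, while PECAM1, VWF and PTPRC lay between 1.06 and 4.36 CPM. COL1A1 had 53.4 to 59.4 CPM with sh1 and 66.1 to 69.8 CPM with sh2, against 48.0 to 50.8 CPM in control, and CD68 had 119 to 127 CPM with sh1 and 113 to 128 CPM with sh2, against 76.0 to 79.8 CPM in control. Of the 5 such markers that passed the filter, 3 were higher and 1 lower with sh1, and 2 were higher and 1 lower with sh2. These few genes stand beside the same shares of all tested genes. The part of these shifts in the results below was not tested. Fewer cells of a type and less RNA per cell cannot be told apart in such bulk libraries.

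Cholesterol is made from acetyl-CoA through mevalonate, the isoprenoid diphosphates, squalene and lanosterol. When sterols are low in the endoplasmic reticulum, SCAP carries the membrane-bound SREBP factors to the Golgi, where proteases release them to switch on genes of this pathway, of sterol handling and of fatty acid synthesis. When sterols are high, INSIG proteins hold SCAP back, and oxysterols activate the LXR receptors, which drive export through ABCA1 and ABCG1. Cornified squamous epithelium, as in skin, is a tissue of active lipid synthesis, since its barrier is built with cholesterol, ceramides and fatty acids. Whether this holds for these esophageal cells was not tested.

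With sh2, 14 of the 19 sterol synthesis enzymes were lower than in control and 2 higher (median log2 fold change -0.55), while with sh1 8 were lower and 8 higher (median 0.09). A gene was called at an adjusted p below 0.05 (edgeR, quasi-likelihood F test, Benjamini-Hochberg over 13580 tested genes). Of the 36 members, 29 were called with sh2, where 68.5% of all tested genes were. Among them 24 were lower and 5 higher, where 34.3% of all tested genes were lower and 34.2% higher. The median log2 fold change was -0.39 over the members and 0.00 over all tested genes. With sh1, 32 members were called, where 69.3% of all tested genes were. Among them 20 were lower and 12 higher, where 34.6% of all tested genes were lower and 34.7% higher, and the median was -0.09 over the members and 0.01 over all genes. Under upper quartile scaling, where the median of all genes with sh1 was 0.06, the split with sh1 was 13 lower and 12 higher, and the small falls of ACAT2, IDI1, HSD17B7, SREBF1, SREBF2, INSIG1 and ACACA with sh1 and of INSIG1 with sh2 were not called. Between the hairpins, 27 members were higher and 7 lower with sh1 than with sh2, where 34.2% and 35.6% of all tested genes were higher and lower, and the members' median was 0.34. Both hairpins are set against the same control libraries, so their values stand side by side below. The counts per pathway step below stand beside these shares of all tested genes, and each step holds only 4 to 9 genes. Few changes were large: 2 members were called at 2-fold or more with sh1 (ABCA1 and INSIG2), 2 with sh2 (DHCR7 and ABCG1) and 5 between the hairpins (those 4 and SC5D), where 9.15%, 7.75% and 8.28% of all tested genes were.

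**Figure D1:**
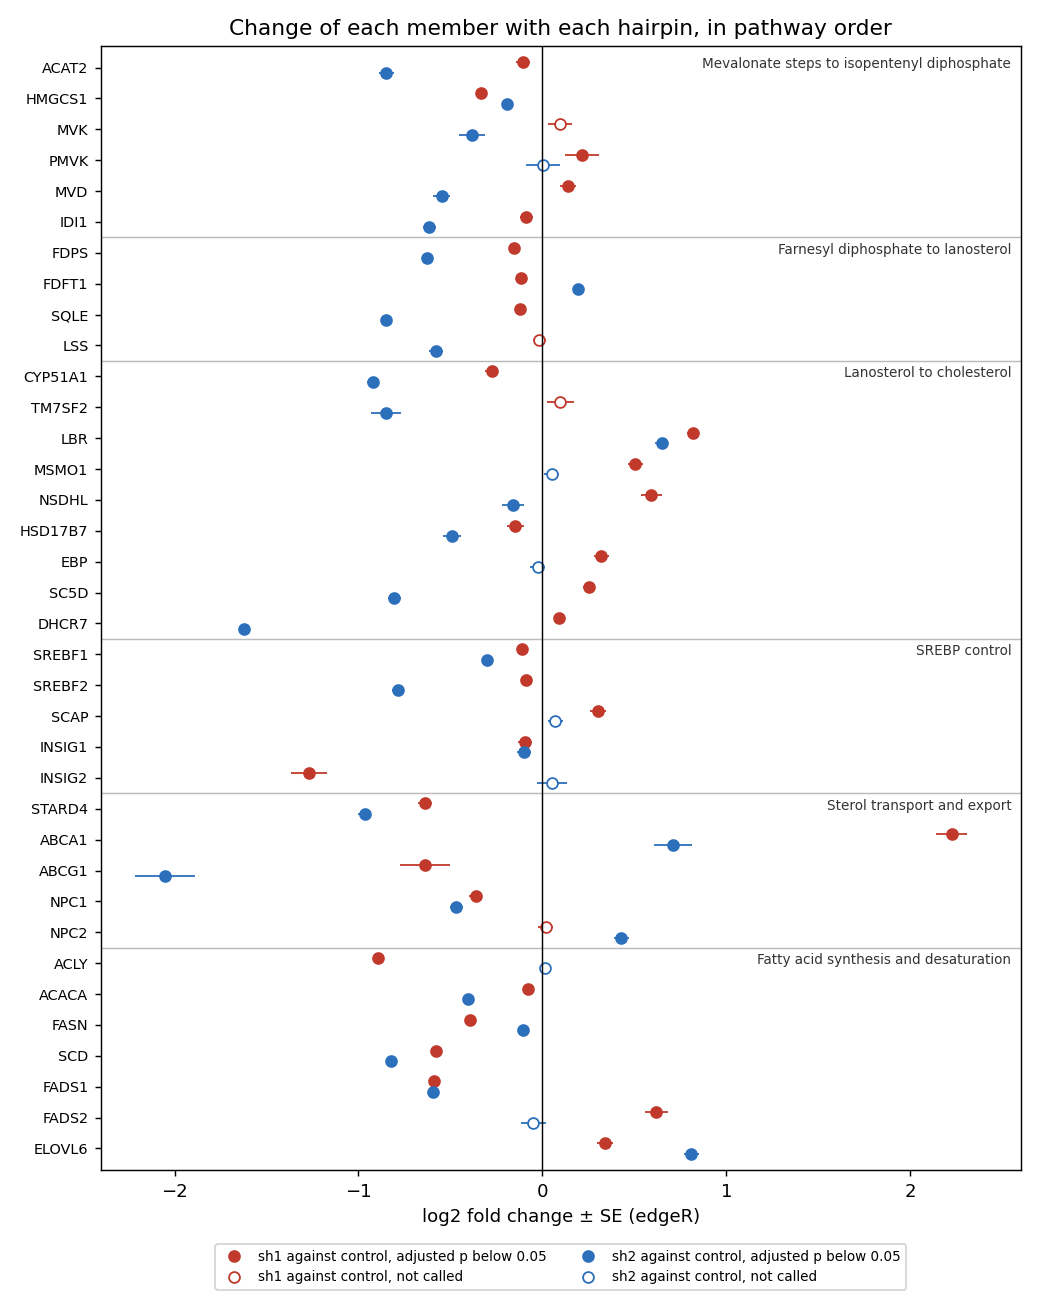
Log2 fold change ± SE (edgeR) of each of the 36 members, with sh1 (red) and sh2 (blue) against control, in pathway order from top to bottom. Filled points passed an adjusted p of 0.05. The sh2 points of the sterol steps lie mostly left of 0, down to -1.63 for DHCR7, while the sh1 points lie on both sides, up to 2.22 for ABCA1 and down to -1.27 for INSIG2.

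The first steps, from acetoacetyl-CoA to isopentenyl diphosphate, were lower with sh2 for 5 of 6 enzymes, and with sh1 3 were lower and 2 higher. ACAT2, the cytosolic thiolase that makes acetoacetyl-CoA, had 89.9, 88.5 and 92.9 CPM with sh1 and 55.8, 54.3 and 51.9 CPM with sh2, against 100.2, 97.6 and 94.2 CPM in control. The sh2 libraries lay well below all others, and its log2 fold change was -0.85 ± 0.041 (SE, adjusted p = 1.47e-17, edgeR) with sh2 and -0.11 ± 0.038 (adjusted p = 0.0137, edgeR) with sh1. HMGCS1, the synthase that makes HMG-CoA and a well-known SREBP target, was lower with both hairpins and lowest with sh1. It had 834, 847 and 849.9 CPM with sh1 and 951, 932 and 911 CPM with sh2, against 1074, 1057 and 1061 CPM in control. The 3 groups did not overlap, and its log2 fold change was -0.33 ± 0.024 with sh1 and -0.19 ± 0.024 with sh2.

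Of the enzymes that carry mevalonate on, MVK, the mevalonate kinase, had 20.97, 21.74 and 21.18 CPM with sh1 and 15.78, 14.996 and 15.09 CPM with sh2, against 19.26, 20.95 and 19.65 CPM in control. The groups did not overlap, although sh1 and control lay close. It fell by 0.38 with sh2 on the log2 scale, and its change of 0.09 ± 0.066 with sh1 was not called. MVD, which decarboxylates mevalonate diphosphate, had 73.5, 72.2 and 66.4 CPM with sh1 and 43.3, 44.7 and 43.7 CPM with sh2, against 65.6, 64.4 and 62.4 CPM in control. Its groups did not overlap, with a rise of 0.14 ± 0.043 for sh1 and a fall of 0.55 ± 0.046 for sh2. IDI1, the isopentenyl diphosphate isomerase, fell by 0.61 ± 0.036 with sh2 and by 0.09 ± 0.034 with sh1. PMVK, the phosphomevalonate kinase and the least abundant of the 6 at 9.76 to 13.3 CPM, rose by 0.22 ± 0.092 with sh1 and had 0.00 ± 0.093 with sh2.

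Some of the smaller calls with sh1 were marginal, since leaving out any of several single libraries lost them. PMVK with sh1 was no longer called without sh1 library 1 (0.21) or 2 (0.17) or control library 1 (0.22) or 3 (0.15). The call of ACAT2 with sh1 was lost without sh1 library 2 (-0.09) or control library 1 (-0.08), and that of IDI1 with sh1 without sh1 library 3 (-0.07) or control library 1 (-0.08) or 3 (-0.08). In the RefSeq table the span of ACAT2 overlaps those of TCP1 and SOD2, MVK overlaps MMAB, and IDI1 overlaps WDR37. The sources used here do not state the strand setting of the counting. The overlapping genes had log2 changes of 0.17 (TCP1), -1.66 (SOD2), -0.23 (MMAB) and 0.85 (WDR37) with sh1, and of 0.53, -1.34, -0.39 and 1.02 with sh2. Among members described below, SREBF1 overlaps RAI1, ABCA1 overlaps NIPSNAP3B and NPC1 overlaps RMC1, with the same limit. RAI1, NIPSNAP3B and RMC1 had log2 changes of -0.24, 0.48 and -0.58 with sh1, and of -0.09, 0.52 and -0.10 with sh2.

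From farnesyl diphosphate to lanosterol, 3 of 4 enzymes were lower with sh1 and 1 was not called, and 3 were lower with sh2 and 1 higher. FDPS, which makes farnesyl diphosphate, had 304, 315 and 311 CPM with sh1 and 224, 228 and 218 CPM with sh2, against 357, 342 and 335 CPM in control. Its groups did not overlap, with falls of 0.15 ± 0.03 with sh1 and 0.63 ± 0.03 with sh2. SQLE, the squalene epoxidase and a rate-limiting oxygenase of the pathway, had 536, 558 and 547 CPM with sh1 and 332, 334 and 324 CPM with sh2, against 588, 592 and 608 CPM in control. The sh2 libraries held well under those of the other groups, and the falls were 0.85 ± 0.027 with sh2 and 0.12 ± 0.026 with sh1. LSS, which closes the ring to lanosterol, fell by 0.58 ± 0.039 with sh2 and had -0.02 ± 0.037 with sh1 (0.03 under upper quartile scaling).

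FDFT1, the squalene synthase that stands between FDPS and SQLE, was the 1 enzyme of these higher with sh2. It had 440.3, 451 and 458 CPM with sh1 and 552, 559 and 561 CPM with sh2, against 493, 479 and 492 CPM in control. The sh2 libraries were the highest and the sh1 libraries the lowest, without overlap. The rise with sh2 was 0.19 ± 0.026 (adjusted p = 1.29e-07, edgeR) and the fall with sh1 was 0.12 ± 0.026 (adjusted p = 0.00026, edgeR).

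All 9 enzymes from lanosterol to cholesterol were higher with sh1 than with sh2, with a median log2 difference of 0.64. Against control, 6 were higher and 2 lower with sh1, and 1 was higher and 6 lower with sh2. CYP51A1, the lanosterol demethylase, had 178, 180.4 and 174 CPM with sh1 and 117, 117 and 107 CPM with sh2, against 216, 214 and 215 CPM in control. It was thus lowest with sh2, with falls of 0.92 ± 0.035 with sh2 and 0.28 ± 0.033 with sh1.

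The next step, reduction of the C14 double bond, can be done by either of a pair of enzymes, and these moved apart. TM7SF2 had 22.3, 24.8 and 21.9 CPM with sh1 and 11.8, 11.6 and 12.3 CPM with sh2, against 23.8, 20.8 and 19.8 CPM in control. Only its sh2 libraries stood apart, with a fall of 0.85 ± 0.082, while the change of 0.10 ± 0.073 with sh1 was not called (0.18 and called without control library 1). LBR, the lamin B receptor of the inner nuclear membrane, had 183, 187 and 178 CPM with sh1 and 167, 162 and 159 CPM with sh2, against 105, 101 and 105 CPM in control. Both hairpins lay above control without overlap, and LBR rose by 0.82 ± 0.034 with sh1 and 0.65 ± 0.034 with sh2. Per length, LBR was the more abundant, with 112 to 116 TPM (transcripts per 1e+06 transcripts) with sh1 and 97.7 to 104 TPM with sh2, against 65.6 to 68.3 TPM in control. TM7SF2 had 33.0 to 37.0 TPM with sh1 and 17.1 to 18.3 TPM with sh2, against 31.1 to 36.6 TPM in control.

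Of the 3 enzymes of C4 demethylation, MSMO1 and NSDHL were higher with sh1 and HSD17B7 was lower. MSMO1, the C4 methyl oxidase, had 206, 220.5 and 207 CPM with sh1 and 164, 155 and 144 CPM with sh2, against 148, 156 and 143 CPM in control. Only the sh1 libraries stood apart, with a rise of 0.50 ± 0.04; the change with sh2 was 0.05 ± 0.041 and not called, though it was called without sh2 library 3 (0.10). NSDHL, the C4 decarboxylase, had 47.3, 48.6 and 48.0 CPM with sh1 and 26.7, 30.4 and 28.3 CPM with sh2, against 34.0, 29.9 and 31.5 CPM in control. It rose by 0.59 ± 0.055 with sh1, while the fall of 0.16 ± 0.06 with sh2, where its libraries overlapped control, was lost without sh2 library 1 (-0.11) or control library 1 (-0.11). HSD17B7, the ketosteroid reductase of this complex, fell by 0.49 ± 0.049 with sh2 and by 0.15 ± 0.048 with sh1, and the second call was lost without sh1 library 3 (-0.11).

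The last steps move and reduce the remaining double bonds. EBP, the sterol isomerase, rose by 0.32 ± 0.04 with sh1 and had -0.03 ± 0.042 with sh2. SC5D, the sterol desaturase, had 142, 143 and 144.5 CPM with sh1 and 69.8, 70.0 and 66.6 CPM with sh2, against 119.7, 119.6 and 122 CPM in control. The 3 groups lay far apart, with a rise of 0.25 ± 0.033 for sh1, a fall of 0.81 ± 0.036 for sh2 and a difference of 1.06 ± 0.035 between the hairpins. DHCR7, the reductase that makes cholesterol from 7-dehydrocholesterol, had 2389.7, 2411 and 2379.8 CPM with sh1 and 724, 726 and 738 CPM with sh2, against 2282, 2269 and 2202 CPM in control. The sh2 libraries held 67.6% less than control by the fit. The log2 change was -1.63 ± 0.024 with sh2 (adjusted p = 5.63e-30, edgeR) and 0.09 ± 0.023 with sh1 (adjusted p = 0.00107, edgeR).

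**Figure D2:**
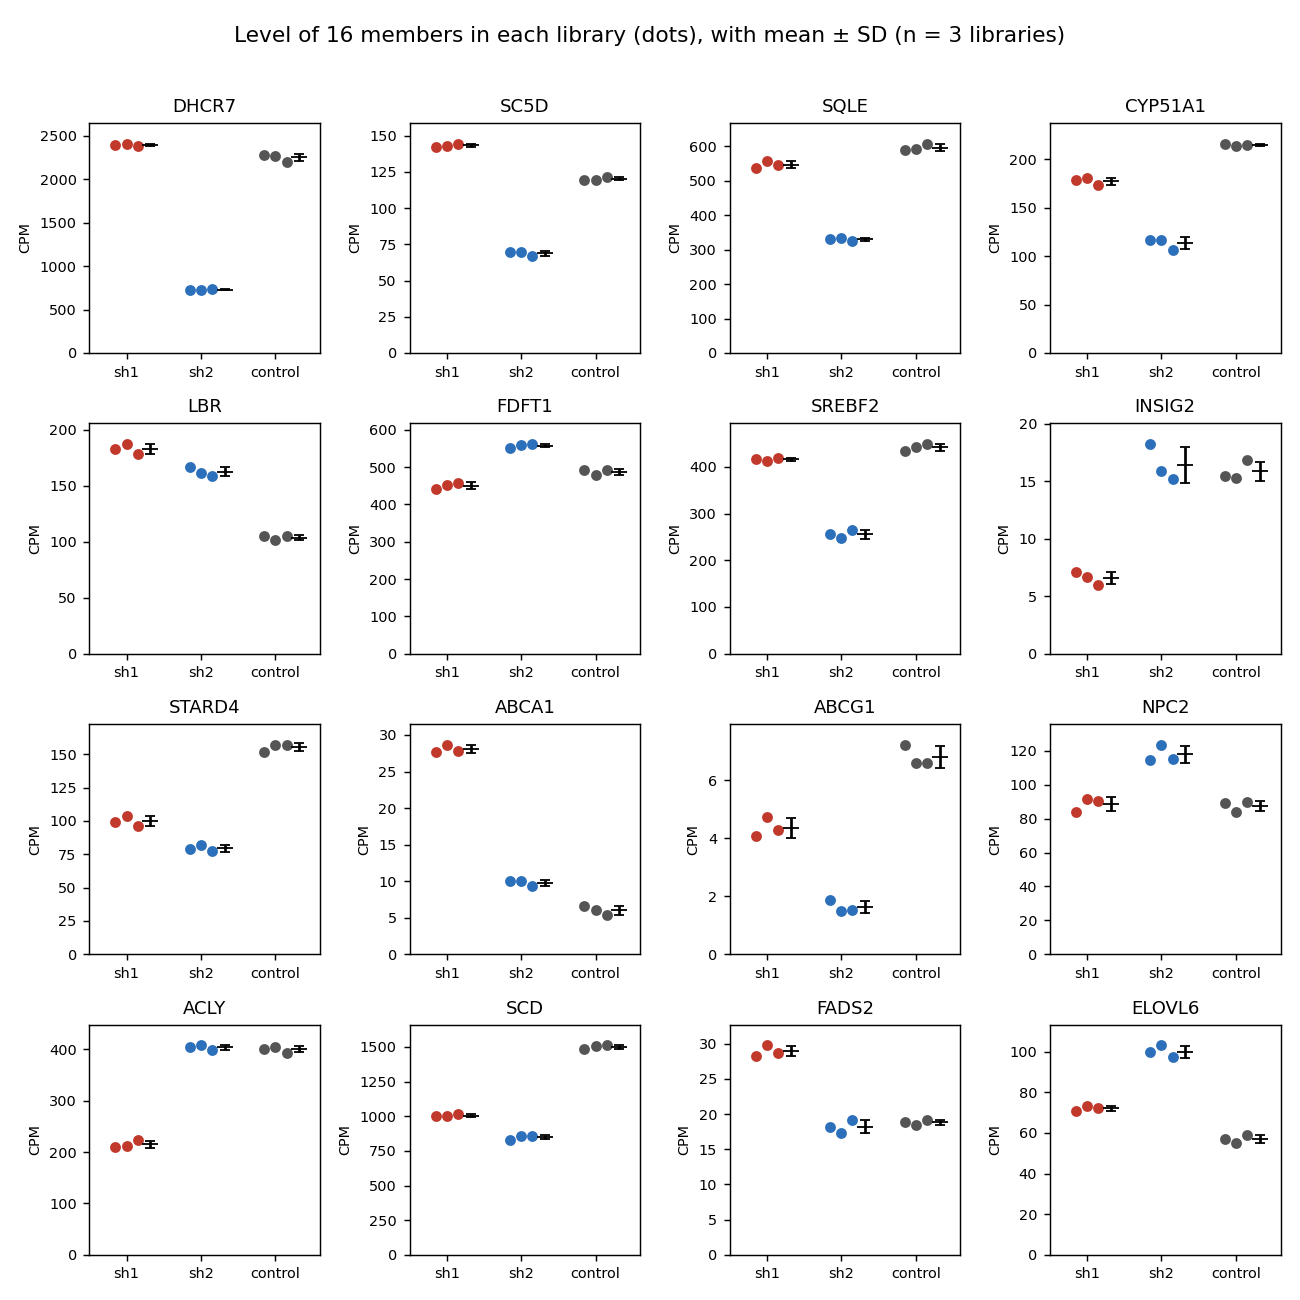
CPM of 16 members in each library, with sh1 (red), sh2 (blue) and control (grey) from left to right; dots are libraries, and the bars beside them the mean ± SD (n = 3). DHCR7, SC5D, SQLE, CYP51A1 and SREBF2 are lowest with sh2, INSIG2 and ACLY lowest with sh1, and ABCA1 and FADS2 highest with sh1.

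DHCR7 was also the most abundant of the 36 members per length in each group. It averaged 2165 ± 16.4 TPM with sh1 and 651 ± 5.25 TPM with sh2, against 2104 ± 24.8 TPM in control (SD, n = 3). In control it was followed by SCD (679 ± 14.4 TPM), FDPS (620.2 ± 16 TPM), FDFT1 (558 ± 9.98 TPM), FASN (523 ± 3.79 TPM), SQLE (496 ± 13.9 TPM) and HMGCS1 (486 ± 2.82 TPM), and among these only the libraries of SQLE and HMGCS1 overlapped. With sh2, the next gene, FDFT1, had 611 ± 4.52 TPM, so that the margin between the first and the next gene was narrow, although their libraries did not overlap. The least abundant members were ABCA1, ABCG1, INSIG2 and FADS2 in every group, in differing order.

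Summed over the 19 synthesis enzymes, the level was 5334 ± 20.2 TPM with sh1 and 3221 ± 39.6 TPM with sh2, against 5480.4 ± 12 TPM in control. DHCR7 made up much of this. Without it, the other 18 summed to 3169 ± 18.7 TPM with sh1 and 2570.1 ± 42.9 TPM with sh2, against 3376 ± 13.6 TPM in control. The sh2 sum thus stayed the lowest with and without DHCR7, by a smaller margin without it.

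**Figure D3:**
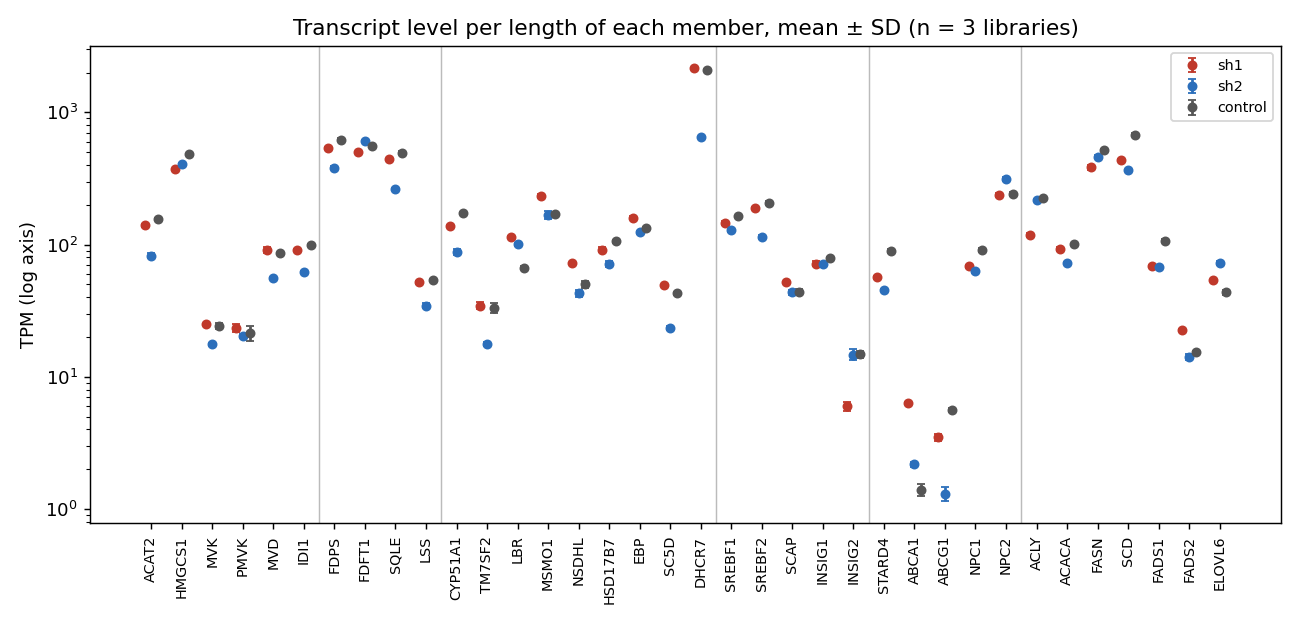
Deposited TPM of each member on a log axis, mean ± SD (n = 3 libraries), in pathway order, with sh1 (red), sh2 (blue) and control (grey) from left to right at each gene. Levels run from 1.31 TPM (ABCG1 with sh2) to 2165 TPM (DHCR7 with sh1).

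Of the 5 genes that control SREBP, 4 were lower and 1 higher with sh1, and 3 were lower with sh2. Of all tested genes, 34.6% were lower with sh1 and 34.3% with sh2. SREBF2, which encodes the SREBP that acts mainly on cholesterol genes, had 418, 412 and 418 CPM with sh1 and 255.5, 247 and 266 CPM with sh2, against 435, 443 and 449 CPM in control. The sh2 libraries lay far below the rest, and SREBF2 fell by 0.79 ± 0.029 with sh2 (adjusted p = 2.38e-20, edgeR) and by 0.09 ± 0.028 with sh1. SREBF1, which encodes the forms that act more on fatty acid genes, had 275, 265 and 269 CPM with sh1 and 230.3, 234 and 245 CPM with sh2, against 291, 294 and 287 CPM in control. It followed the same order with a smaller fall, by 0.30 ± 0.03 with sh2 and 0.11 ± 0.03 with sh1. SCAP, the escort of SREBP, rose by 0.30 ± 0.042 with sh1, and its change of 0.07 ± 0.042 with sh2 was not called (0.11 and called without control library 1).

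The INSIG pair differed. INSIG1, itself a target of SREBP, had 89.0, 95.8 and 89.2 CPM with sh1 and 93.2, 89.6 and 89.7 CPM with sh2, against 98.2, 95.3 and 98.9 CPM in control. Its falls of 0.09 ± 0.038 with sh1 and 0.10 ± 0.038 with sh2 were small. The first was lost without sh1 library 1 (-0.07) or 3 (-0.08) or control library 1 (-0.09) or 3 (-0.08), and the second without sh2 library 2 (-0.09). INSIG2, which is not driven by SREBP, had 7.06, 6.71 and 5.97 CPM with sh1 and 18.2, 15.9 and 15.2 CPM with sh2, against 15.5, 15.3 and 16.8 CPM in control. Only the sh1 libraries stood apart, with a fall of 1.27 ± 0.1 (adjusted p = 1.89e-12, edgeR), while the change of 0.05 ± 0.082 with sh2 was not called and changed sign without sh2 library 1 (-0.03).

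SREBP factors bind sterol regulatory elements and act together with NF-Y, which binds the box CCAAT, so these letters were looked for in the promoters. RefSeq (GRCh38.p14) gave promoters for 31 of the 36 members, and the 250 bases before each start were searched on both strands. There was no entry for ACAT2, FDFT1, SQLE, ABCG1 and FASN. A gene counted if any of its windows held the motif. CCAAT was found for 20 of the 31 members (64.5%). It was found for 13 of the 16 synthesis enzymes with an entry (81.2%) and for 7 of the other 15 members (46.7%). The share was 41.7% among 11061 tested genes with an entry and 37% among all 27305 genes with an entry. The sterol element core TCACNCCAC was found for 1 member, SREBF2 (3.23%), against 1.21% of tested genes and 1.09% of all genes with an entry. Several enzymes lowered by sh2 hold CCAAT, and so do MSMO1, NSDHL and EBP, which were higher with sh1. The members with neither motif in this window were PMVK, CYP51A1, LBR, SREBF1, SCAP, INSIG2, ABCA1, NPC1, FADS1, FADS2 and ELOVL6. Of these, CYP51A1, SREBF1, NPC1 and FADS1 were lower with sh2, and LBR, ABCA1 and ELOVL6 were higher. A match is a description of letters and not a bound site. The lack of these exact letters in 250 bases does not show that a gene lacks such an element.

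The promoter of SREBF2 is shown because it alone holds both motifs, those of DHCR7 and TM7SF2 for their falls with sh2, and that of STARD4, a sterol carrier, for its fall with both hairpins. RefSeq gave 2 windows for DHCR7. The window printed was picked by its number of matches to the motifs, with ties settled by position. Capitals mark TCACNCCAC and CCAAT, the second read in reverse complement where it lies on the other strand. Each is written 5′ to 3′ on the strand of its gene, and bases that a GENCODE v29 transcript of the gene places in an exon were left out.
SREBF2, chr22:41832855-41833078, plus strand, with the sterol element 133 and the CCAAT box 106 bases before the start: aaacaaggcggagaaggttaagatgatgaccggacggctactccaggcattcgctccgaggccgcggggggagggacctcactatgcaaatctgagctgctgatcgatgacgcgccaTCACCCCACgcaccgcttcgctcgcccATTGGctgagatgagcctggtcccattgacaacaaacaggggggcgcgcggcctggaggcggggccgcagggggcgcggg
DHCR7, chr11:71448436-71448643, minus strand, with CCAAT boxes 94 and 48 bases before the start: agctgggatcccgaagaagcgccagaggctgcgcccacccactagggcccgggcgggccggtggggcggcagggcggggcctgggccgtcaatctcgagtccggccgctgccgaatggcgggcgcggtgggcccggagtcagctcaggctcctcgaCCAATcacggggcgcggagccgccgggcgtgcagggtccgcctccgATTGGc
TM7SF2, chr11:65111622-65111844, plus strand, with a CCAAT box 74 bases before the start: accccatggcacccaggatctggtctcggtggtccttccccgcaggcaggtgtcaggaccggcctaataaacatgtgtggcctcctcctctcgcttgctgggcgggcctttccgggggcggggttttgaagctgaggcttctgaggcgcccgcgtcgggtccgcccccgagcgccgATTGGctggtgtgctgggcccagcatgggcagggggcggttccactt
STARD4, chr5:111512591-111512785, minus strand, with CCAAT boxes 161 and 130 bases before the start: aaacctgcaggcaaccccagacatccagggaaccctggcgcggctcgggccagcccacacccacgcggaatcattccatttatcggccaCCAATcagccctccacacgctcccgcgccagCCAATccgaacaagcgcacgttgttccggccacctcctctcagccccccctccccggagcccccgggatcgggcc

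Of the 5 transport genes, 3 were lower and 1 higher with sh1, and 3 were lower and 2 higher with sh2. Of all tested genes, 34.6% were lower and 34.7% higher with sh1, and 34.3% lower and 34.2% higher with sh2. The exporters ABCA1 and ABCG1 moved in opposite directions. ABCA1, which loads cholesterol onto apolipoprotein and is a known LXR target, had 27.7, 28.7 and 27.8 CPM with sh1 and 10.1, 9.96 and 9.33 CPM with sh2, against 6.64, 5.99 and 5.34 CPM in control. The groups did not overlap, and it rose by 2.22 ± 0.085 with sh1 (adjusted p = 4.52e-20, edgeR) and by 0.71 ± 0.104 with sh2 (adjusted p = 5.45e-07, edgeR). ABCG1, a transporter that passes sterols to lipoprotein particles and also an LXR target, had 4.07, 4.74 and 4.28 CPM with sh1 and 1.88, 1.49 and 1.53 CPM with sh2, against 7.22, 6.59 and 6.59 CPM in control. It was highest in control without overlap, and fell by 2.05 ± 0.163 with sh2 and 0.64 ± 0.136 with sh1. Its level was low, yet above the floor of 3 counts per library, which is 0.186 to 0.205 CPM.

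STARD4, which shuttles sterol between membranes and is an SREBP target, had 99.4, 104 and 96.3 CPM with sh1 and 78.8, 82.1 and 77.5 CPM with sh2, against 152, 157 and 157 CPM in control. Both hairpins lay below control without overlap, with falls of 0.64 ± 0.036 with sh1 and 0.97 ± 0.036 with sh2. The lysosomal exit of cholesterol depends on NPC2, a soluble carrier, and NPC1, its membrane partner, and these did not move together. NPC1 had 137, 136 and 141 CPM with sh1 and 132, 127.5 and 125 CPM with sh2, against 186, 174 and 173 CPM in control, falls of 0.36 ± 0.035 with sh1 and 0.47 ± 0.035 with sh2. NPC2 had 83.8, 91.6 and 90.5 CPM with sh1 and 115, 124 and 115 CPM with sh2, against 89.0, 84.0 and 89.7 CPM in control. Only the sh2 libraries stood apart, with a rise of 0.43 ± 0.04, and the change of 0.02 ± 0.042 with sh1 changed sign without sh1 library 2 (-0.01) or control library 2 (-0.01).

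Of the 7 genes of fatty acid synthesis, 5 were lower and 2 higher with sh1, and 4 were lower and 1 higher with sh2. Of all tested genes, 34.6% were lower and 34.7% higher with sh1, and 34.3% lower and 34.2% higher with sh2. The median log2 fold change of the 7 was -0.39 with sh1 and -0.11 with sh2. ACLY, which supplies cytosolic acetyl-CoA from citrate, had 209.7, 212 and 223 CPM with sh1 and 405, 407 and 398 CPM with sh2, against 400.1, 405 and 393 CPM in control. Only the sh1 libraries stood apart: ACLY fell by 0.89 ± 0.029 with sh1 (adjusted p = 1.00e-21, edgeR), and its change of 0.01 ± 0.028 with sh2 changed sign without control library 3 (-0.0028). ACACA, the acetyl-CoA carboxylase, had the other order, with falls of 0.40 ± 0.028 with sh2 and 0.08 ± 0.028 with sh1, and the call with sh1 was lost without sh1 library 2 (-0.06). FASN, the fatty acid synthase, had 1424, 1333 and 1351 CPM with sh1 and 1631, 1667 and 1715 CPM with sh2, against 1809, 1806 and 1782 CPM in control. It fell by 0.39 ± 0.026 with sh1 and by 0.11 ± 0.026 with sh2, without overlap between groups.

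SCD, the desaturase that makes oleate, had 1001, 999.5 and 1014 CPM with sh1 and 832, 857 and 857 CPM with sh2, against 1485, 1509.8 and 1511 CPM in control. Both hairpins lay far below control, with falls of 0.58 ± 0.024 with sh1 and 0.82 ± 0.024 with sh2. The neighbouring desaturase genes FADS1 and FADS2, which act in the synthesis of polyunsaturated fatty acids, moved apart. FADS1 had 128, 129 and 126 CPM with sh1 and 127, 129 and 126 CPM with sh2, against 190.4, 194 and 192 CPM in control, a fall of 0.59 with each hairpin. FADS2 had 28.3, 29.7 and 28.7 CPM with sh1 and 18.1, 17.4 and 19.2 CPM with sh2, against 18.9, 18.4 and 19.1 CPM in control, a rise of 0.62 ± 0.063 with sh1 and an uncalled -0.05 ± 0.068 with sh2. ELOVL6, the elongase of palmitate, rose with both and more with sh2, since it had 70.9, 73.3 and 72.4 CPM with sh1 and 99.7, 103 and 97.2 CPM with sh2, against 56.8, 55.2 and 59.0 CPM in control. Its rises were 0.34 ± 0.042 with sh1 and 0.81 ± 0.039 with sh2. The spans of FADS1 and FADS2 overlap in the RefSeq table, so the split of reads between them is uncertain without known strand.

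Set directly against each other, sh1 and sh2 differed for 34 of the 36 members, where 69.8% of all tested genes differed. The differences of greatest size were higher with sh1 for DHCR7 (1.71 ± 0.024), ABCA1 (1.52 ± 0.076), ABCG1 (1.41 ± 0.179), SC5D (1.06 ± 0.035) and TM7SF2 (0.95 ± 0.081), and lower with sh1 for INSIG2 (-1.32 ± 0.099) and ACLY (-0.91 ± 0.029). The largest adjusted p among these 7 was 3.84e-08 (ABCG1, edgeR). Of the 19 synthesis enzymes 17 were higher with sh1, with a median of 0.53, and the 2 that were lower were HMGCS1 (-0.14 ± 0.024) and FDFT1 (-0.31 ± 0.026). Fatty acid synthesis was even, with 3 genes higher and 3 lower. The 2 members without a call were INSIG1 (0.01 ± 0.038) and FADS1 (0.00 ± 0.032), which does not show that their levels were equal. PMVK was called between the hairpins (0.21 ± 0.091), but not without sh1 library 1 (0.21) or 2 (0.17), nor without sh2 library 1 (0.23), 2 (0.20) or 3 (0.21).

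**Figure D4:**
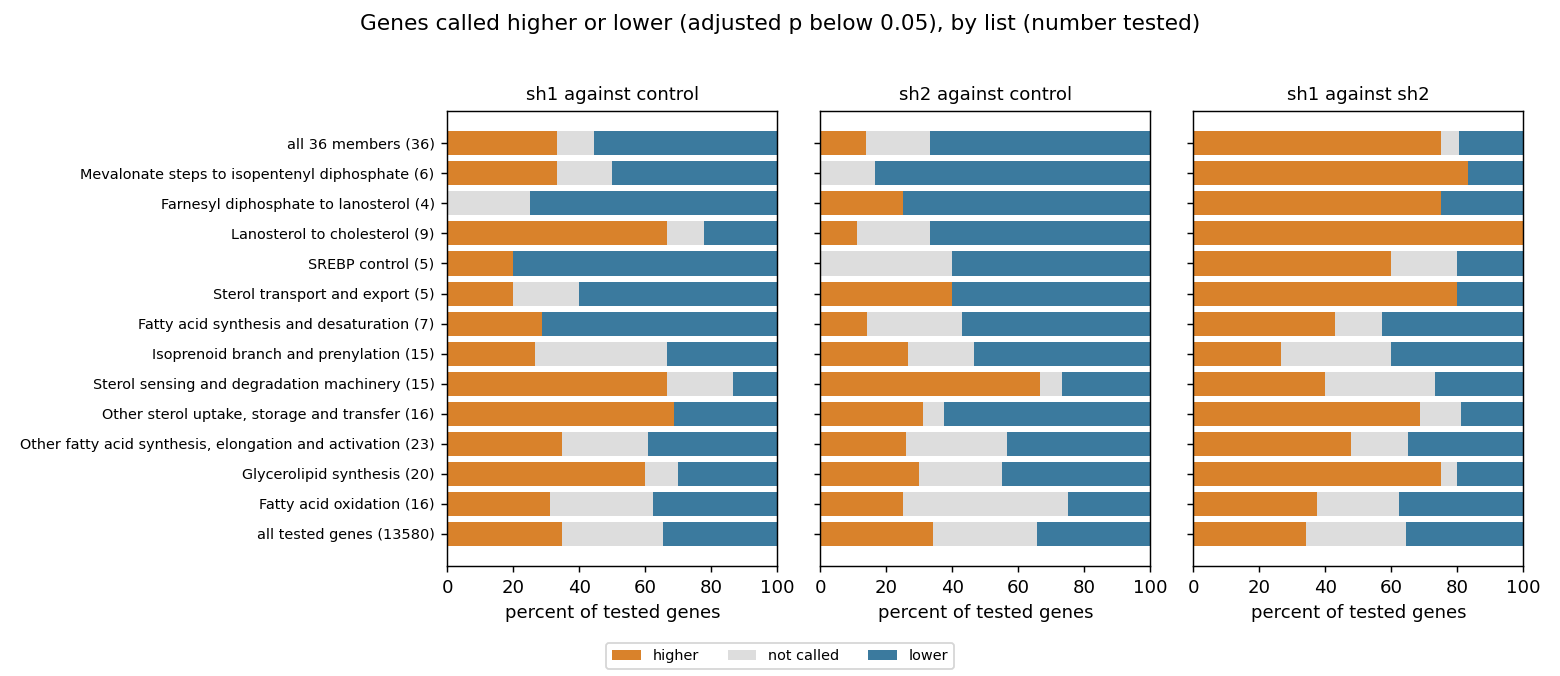
Percent of tested genes called higher (orange), not called (grey) or lower (blue) for sh1 against control, sh2 against control and sh1 against sh2, for the members, their steps, 6 further lists of lipid genes and all 13580 tested genes. All 9 enzymes from lanosterol to cholesterol were higher with sh1 than with sh2, while the 7 fatty acid genes were even.

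A further 6 lists with 106 lipid genes set the members in their surroundings, and their counts stand beside 34.7% higher and 34.6% lower with sh1, and 34.2% higher and 34.3% lower with sh2, of all tested genes. Of 15 genes that sense sterols or degrade pathway enzymes, 10 were higher with each hairpin, while 2 were lower with sh1 and 4 with sh2. The list's median was 0.29 with sh1 and 0.14 with sh2. MBTPS2, the Golgi protease that releases SREBP in the membrane, had 21.5, 21.5 and 20.2 CPM with sh1 and 55.6, 57.7 and 52.8 CPM with sh2, against 42.1, 40.4 and 42.3 CPM in control. It was lowest with sh1 and highest with sh2, a change of -0.98 ± 0.058 with sh1 and 0.41 ± 0.047 with sh2. ERLIN1, a scaffold protein of the endoplasmic reticulum, moved in opposite directions, with a rise of 0.31 ± 0.038 with sh1 and a fall of 0.83 ± 0.043 with sh2. ERLIN2, its partner, rose by 0.44 with sh1 and 0.43 with sh2. PGRMC1 rose by 0.67 with sh1 and 0.14 with sh2, RNF139 fell by 0.56 with sh1 and 0.39 with sh2, and UBE2G2 fell by 0.41 with sh2 and had an uncalled 0.04 with sh1.

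Of 16 other genes of sterol uptake, storage and transfer, 11 were higher and 5 lower with sh1, and 5 higher and 10 lower with sh2. MYLIP, a ligase for lipoprotein receptors and a known LXR target, rose by 0.96 ± 0.05 with sh1 and 1.01 ± 0.049 with sh2. VLDLR, a receptor of that family, fell by 0.44 ± 0.083 with sh1 and 1.34 ± 0.093 with sh2. LIPA, the lysosomal acid lipase, had 171, 177 and 174 CPM with sh1 and 71.1, 65.8 and 67.1 CPM with sh2, against 115, 111 and 110.4 CPM in control. Its hairpins thus lay on opposite sides of control, with a rise of 0.63 ± 0.034 with sh1 and a fall of 0.72 ± 0.038 with sh2. LRP1 rose by 0.86 with sh1 and 0.44 with sh2, and NCEH1 by 0.30 with sh1 and 0.77 with sh2. LRP8 fell by 0.46 with sh1 and 0.55 with sh2, and GRAMD1A by 0.54 with sh1 and 0.13 with sh2, where its call was lost without control library 2 (-0.11).

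Of 15 genes of the isoprenoid branch and protein prenylation, 4 were higher and 5 lower with sh1, near or below the share of all tested genes, and 4 were higher and 8 lower with sh2. COQ2, an enzyme of coenzyme Q synthesis, rose by 0.30 ± 0.069 with sh1 and 0.74 ± 0.064 with sh2. ICMT, a methyltransferase of prenylated proteins, fell by 0.52 ± 0.036 with sh1 and by 0.09 ± 0.034 with sh2, where the call was lost without sh2 library 3 (-0.07) or control library 3 (-0.08). FNTB, a subunit of farnesyltransferase, had 11.7, 9.89 and 18.2 CPM with sh1 and 11.02, 9.4 and 9.84 CPM with sh2, against 9.11, 10.3 and 6.73 CPM in control. Of the sh1 libraries, 1 was far above the others and 1 lay within the control range. The rise of 0.61 ± 0.154 with sh1 was 0.31 without sh1 library 3, and 0.21 ± 0.16 with sh2 was not called. ZMPSTE24 rose by 0.39 with sh1 and fell by 0.12 with sh2, a call lost without sh2 library 3 (-0.08). With sh2, PGGT1B rose by 0.30 and PDSS2 fell by 0.23, with uncalled values of -0.01 and 0.11 with sh1.

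Of 23 other genes of fatty acid synthesis, elongation and activation, 8 were higher and 9 lower with sh1, and 6 higher and 10 lower with sh2. ACSS2, which makes acetyl-CoA from acetate, had 51.9, 55.4 and 56.4 CPM with sh1 and 73.1, 74.7 and 73.6 CPM with sh2, against 160.4, 157 and 160.4 CPM in control. Both hairpins lay far below control, with falls of 1.54 ± 0.038 with sh1 and 1.11 ± 0.035 with sh2. ME1, the cytosolic malic enzyme that supplies NADPH, fell by 1.28 ± 0.037 with sh1 and 0.25 ± 0.033 with sh2. ACSL5, an acyl-CoA synthetase, rose by 0.59 with sh1 and 0.85 with sh2, and MCAT by 0.58 with sh1 and 0.50 with sh2. SCD5 rose by 0.67 with sh1 and 0.16 with sh2, where the call was lost without control library 1 (0.11). FADS3 rose by 0.16 with sh1 and fell by 0.65 with sh2.

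Of 20 glycerolipid synthesis genes, 12 were higher and 6 lower with sh1, and 6 higher and 9 lower with sh2. GPAM, the mitochondrial glycerol phosphate acyltransferase, rose by 1.47 ± 0.08 with sh1 and 0.79 ± 0.086 with sh2. PISD, which makes phosphatidylethanolamine in mitochondria, fell by 0.44 ± 0.039 with sh1 and 0.80 ± 0.04 with sh2. LPIN1 fell by 0.56 with sh1 and 0.21 with sh2, and CHKA by 0.25 with sh1 and 0.68 with sh2. PTDSS2 rose by 1.27 with sh1 and had an uncalled -0.22 with sh2, which was called without sh1 library 2 (-0.23) or control library 1 (-0.29). GPAT3 fell by 0.86 with sh1 and had an uncalled 0.06 with sh2, and AGPAT3 rose by 0.64 with sh2 and had an uncalled -0.02 with sh1. Of 17 genes of fatty acid oxidation, 16 were tested, 5 higher and 6 lower with sh1, and 4 higher and 4 lower with sh2. HADHA, the alpha subunit of the mitochondrial trifunctional protein, had 75.5, 75.5 and 80.8 CPM with sh1 and 223, 221 and 223 CPM with sh2, against 277, 269.7 and 267 CPM in control, a fall of 1.81 ± 0.034 with sh1 and 0.29 ± 0.03 with sh2. EHHADH, of the peroxisomal pathway, fell by 0.92 with sh1 and 0.57 with sh2, and CPT1A, which admits fatty acids to mitochondria, fell by 0.25 with sh1 and 0.47 with sh2. HADH rose by 0.45 with sh1 and 0.20 with sh2, CPT2 rose by 0.28 with sh1 and 0.32 with sh2, and ETFB rose by 0.37 with sh2 and had an uncalled -0.0012 with sh1. HADHB, the beta subunit, named after its values were seen, had 134 to 141 CPM with sh1 and 119 to 125 CPM with sh2, against 124 to 129 CPM in control.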

How the data were processed

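Per the labels' protocols, libraries from total RNA of KYSE510 cells were made for the BGISEQ-500. RSEM 1.2.12, HISAT2 2.0.4, Bowtie2 2.2.5 and DESeq2 1.4.5 are named in the submitters' processing notes, with no roles, as is hg19. Per the file headers, each of 9 deposited tables gives an expected count (an estimate that need not be whole), a TPM value (per length, scaled to a fixed sum, made by the authors) and an FPKM value (per length and mapped reads, made by the authors) for 19266 genes. A whole-series FPKM table held equal values for 17628 of these genes (largest difference 0) and was not used. Symbols came from a RefSeq table of GRCh38.p14, which named 19223 identifiers and was used for names and neighbours.

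Expected counts were rounded and analysed in R 4.3.3 with edgeR 4.0.16: filterByExpr, TMM scaling and 1 quasi-likelihood fit of all 9 libraries with group as the only term. An SE was taken as the size of the log2 fold change over the root of its F. Limma 3.58.1 on log2(FPKM + 1) or log2(FPKM + 0.1), where mean FPKM was 1 or more, and DESeq2 1.42.0 were alternatives. The fits were tested on simulated data. The tables of a sample differed by a chi-square of 1.41 to 2.43 per degree of freedom, above sampling noise, so none was counted as a copy. Floors cover counting error only. Members are all named. In the further lists, at most 2 genes in each direction and hairpin are named, those of greatest change among called genes with a mean of at least 10 CPM; some of these are not reported here. Members and lists were chosen with earlier results of these data known, and no list was given a set test.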

Additional observations from a re-analysis of the deposited data

Results flagged for a closer look

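For 5 members the hairpins' changes against control were called in opposite directions. The difference between the hairpins was called too (edgeR's quasi-likelihood test), which adds little, since it is the distance between those 2 changes. The share of all tested genes called in opposite directions was not computed. Of all tested genes, 34.7% were higher and 34.6% lower with sh1, and 34.2% higher and 34.3% lower with sh2. The 5 members are therefore not shown to be unusual. DHCR7 differed by 1.71 on the log2 scale (sh1 over sh2), with 0.09 for sh1 and -1.63 for sh2 against control. SC5D differed by 1.06, with 0.25 for sh1 and -0.81 for sh2. NSDHL differed by 0.75, with 0.59 for sh1 and -0.16 for sh2, and the second of these was lost without sh2 library 1 (-0.11) or control library 1 (-0.11). MVD differed by 0.69, with 0.14 for sh1 and -0.55 for sh2. FDFT1 differed by -0.31, with -0.12 for sh1 and 0.19 for sh2.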

How the results depend on the processing

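The member counts stayed within 1.5 times under every alternative but 2. Under upper quartile scaling 13 members were lower with sh1, against 20. With a fold of at least 2, 2 members were called with sh1 (1 higher, 1 lower), 2 with sh2 (0 higher, 2 lower) and 5 between the hairpins (4 higher, 1 lower), and of all genes 1242 with sh1 (534 higher, 708 lower), 1053 with sh2 (427 higher, 626 lower) and 1124 between the hairpins (594 higher, 530 lower). Leaving out each library in turn gave 29 to 32 members called with sh1, 28 to 30 with sh2 and 33 to 34 between the hairpins. DESeq2 called 8540, 8364 and 8514 of all genes in these 3 comparisons. Of 108 member fold changes, 87 kept direction and call under every alternative other than the fold threshold, which was applied to counts only. DESeq2 did not call IDI1 and INSIG1 with sh1, NSDHL with sh2 or PMVK with sh1 and between the hairpins, nor did limma call PMVK.

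The values that changed sign were all uncalled. PMVK with sh2 had -0.0004427 with DESeq2 size factors, -0.00829 with no filter, -0.0005759 with DESeq2, -0.002617 and -0.002218 with limma at a pseudocount of 1 and 0.1, and -0.0012 with only 2 groups fitted. LSS with sh1 had 0.03076 under upper quartile scaling. With single libraries left out, the ranges were -0.07048 to 0.06263 for PMVK with sh2, -0.038 to 0.001738 for LSS with sh1, -0.03002 to 0.1022 for INSIG2 with sh2, -0.01006 to 0.05757 for NPC2 with sh1, -0.00284 to 0.02223 for ACLY with sh2, and between the hairpins -0.02473 to 0.02999 for INSIG1 and -0.003489 to 0.01875 for FADS1. The cause was not tested. Leaving out libraries for the named genes of the further lists was chosen after seeing the data.

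No pairing by table number was seen, since the deviations of same-numbered tables correlated at -0.0877 to 0.0394. Tables of different number were not set against each other, so this does not show that the libraries were unpaired. With the table number as a replicate block, sh1 gave 32 called members and 9431 called genes, sh2 gave 29 and 9295, and sh1 against sh2 gave 34 and 9501; the splits of the members were unchanged.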
